A study of Mus musculus with 2 samples.

Results

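The keratin and keratin-associated genes were examined as 111 protein-coding genes, chosen by a symbol that starts with Krt in GENCODE release M21, with the Krtcap genes left out. They are 111 of 21755 protein-coding genes on chromosomes 1 to 19 and X. By symbol, 28 are type I keratins, 25 are type II keratins and 57 are keratin-associated protein genes (Krtap). The remaining one is Krtdap, a keratinocyte differentiation gene that is neither a keratin nor a Krtap gene. The measurements are 7435 chromatin boundaries of 5 kb each, called by the authors from in situ Hi-C, a method that joins and sequences pieces of DNA found near one another in fixed nuclei. The cells were olfactory sensory neurons carrying the MOR23-GFP allele and expressing the receptor gene Olfr16 (MOR23), sorted from the olfactory epithelium of adult mice of mixed sex, untreated and of unspecified strain. Replicate 1 held 28000 cells and replicate 2 held 24400 cells, fixed in 1% formaldehyde and cut with DpnII, and both form 1 group.

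Keratins are the intermediate filament proteins of epithelia. Each filament unit pairs an acidic type I keratin with a basic type II keratin, and in hair the filaments are embedded in a matrix of small keratin-associated proteins rich in cysteine or in glycine and tyrosine. In mammals the type I and type II genes lie in separate tandem clusters, Krt18 excepted, and most Krtap genes lie in clusters of their own or among the type I genes. Neurons build their filaments from other proteins. In the olfactory epithelium Krt5 and Krt14 mark the horizontal basal cells, which are stem cells, and Krt8 and Krt18 are keratins of the sustentacular support cells. The sorted neurons therefore show these loci in a cell type that is not known for using them. Expression was not measured, and the list holds no value that could check the sorted cell type by its markers.

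A boundary separates stretches of chromosome with many internal contacts. The authors' score grades its strength, and in the list every Strong boundary scores above 0.5 and every Weak one below it. The list was made from both replicates combined and holds neither replicate values nor a depth. No spread between replicates and no test of a difference can therefore be given. Shares carry exact 95% intervals (Clopper-Pearson), which cover counting error only; neighbouring genes share boundaries and are not independent, so these intervals are too narrow.

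The letters that carry the findings are of 2 kinds: stretches that match the CTCF consensus (CTCF is an insulator protein bound at many boundaries) and promoters of the members that lie nearest to a boundary. The CTCF matches shown are all 6 within 10 kb of a boundary inside or flanking a keratin cluster. Each is read 5′ to 3′ along the consensus, with the match in capitals and 20 bases of GRCm38 on either side. The first 4 belong to the type II cluster on chromosome 15 and the last 2 to the boundaries that flank the Krtap5 cluster on chromosome 7.
chr15:101519947-101519998, + strand, inside the boundary between Krt83 and Krt84: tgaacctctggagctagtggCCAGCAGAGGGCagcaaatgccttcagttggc
chr15:101977149-101977200, + strand, inside the boundary between Krt78 and Krt8: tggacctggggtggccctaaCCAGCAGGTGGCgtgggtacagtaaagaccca
chr15:101984493-101984544, − strand, to the right of the same boundary: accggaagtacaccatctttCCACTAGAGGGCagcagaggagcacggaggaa
chr15:102065802-102065853, − strand, to the left of the boundary beyond Krt18: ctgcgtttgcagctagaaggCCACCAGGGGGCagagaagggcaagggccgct
chr7:141973285-141973336, − strand, to the left of the boundary before the Krtap5 cluster: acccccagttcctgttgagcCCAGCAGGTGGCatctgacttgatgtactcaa
chr7:142316692-142316743, + strand, inside the boundary beyond Krtap5-4: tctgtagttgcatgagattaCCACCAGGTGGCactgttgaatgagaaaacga

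The promoters are the 100 bases before the RefSeq start (GRCm38.p6), for 4 of the 5 members nearest to a boundary. That of Krt71 is not printed because its upstream window overlaps annotated untranslated sequence; it had TATAAA at 40 bases before the start. Capitals mark TATAAA, the core of the TATA box that positions transcription starts, where it stood 45 to 15 bases before the start on the gene's strand. Among the 4 printed, it began 30 bases before the start in Krtap31-2 and Krtap9-5 and was not in that window in Krtap5-4 and Krt84.
Krtap31-2, chr11:99936191-99936290, + strand: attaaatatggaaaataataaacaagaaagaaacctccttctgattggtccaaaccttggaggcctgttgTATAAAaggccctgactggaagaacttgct
Krtap9-5, chr11:99948324-99948423, + strand: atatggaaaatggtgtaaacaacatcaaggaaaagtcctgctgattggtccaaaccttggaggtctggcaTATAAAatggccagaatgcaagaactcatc
Krtap5-4, chr7:142303402-142303501, + strand: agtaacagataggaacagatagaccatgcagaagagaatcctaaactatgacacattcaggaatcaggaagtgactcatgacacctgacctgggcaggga
Krt84, chr15:101532821-101532920, − strand: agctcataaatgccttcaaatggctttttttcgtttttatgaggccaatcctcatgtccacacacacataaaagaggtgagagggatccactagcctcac

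Taking clusters as runs of at least 5 members with gaps of at most 500 kb, 105 members lay in 4 clusters. The type I cluster on chromosome 11 (99232761 to 100269871, 1037 kb) held 50 members, 27 type I keratins and 23 Krtap genes. The type II cluster on chromosome 15 (101347444 to 102032027, 684.6 kb) held 26, the 25 type II keratins and Krt18, a type I keratin. The Krtap cluster on chromosome 16 (88610705 to 89571183, 960.5 kb) held 24 Krtap genes, and the Krtap5 cluster on chromosome 7 (142174535 to 142304594, 130.1 kb) held 5. The 6 members outside clusters were Krtap28-10 and Krtap28-13 on chromosome 1, Krtap12-1, Krtap10-4 and Krtap10-10 on chromosome 10, and Krtdap on chromosome 7. Another 40 protein-coding genes start inside the clusters, and all 40 carry provisional symbols (Gm or Rik); they were not counted as members. Some may be keratin-associated genes under other names, which the annotation used here does not settle, so counts that include them are given where they differ.

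**Figure D1:**
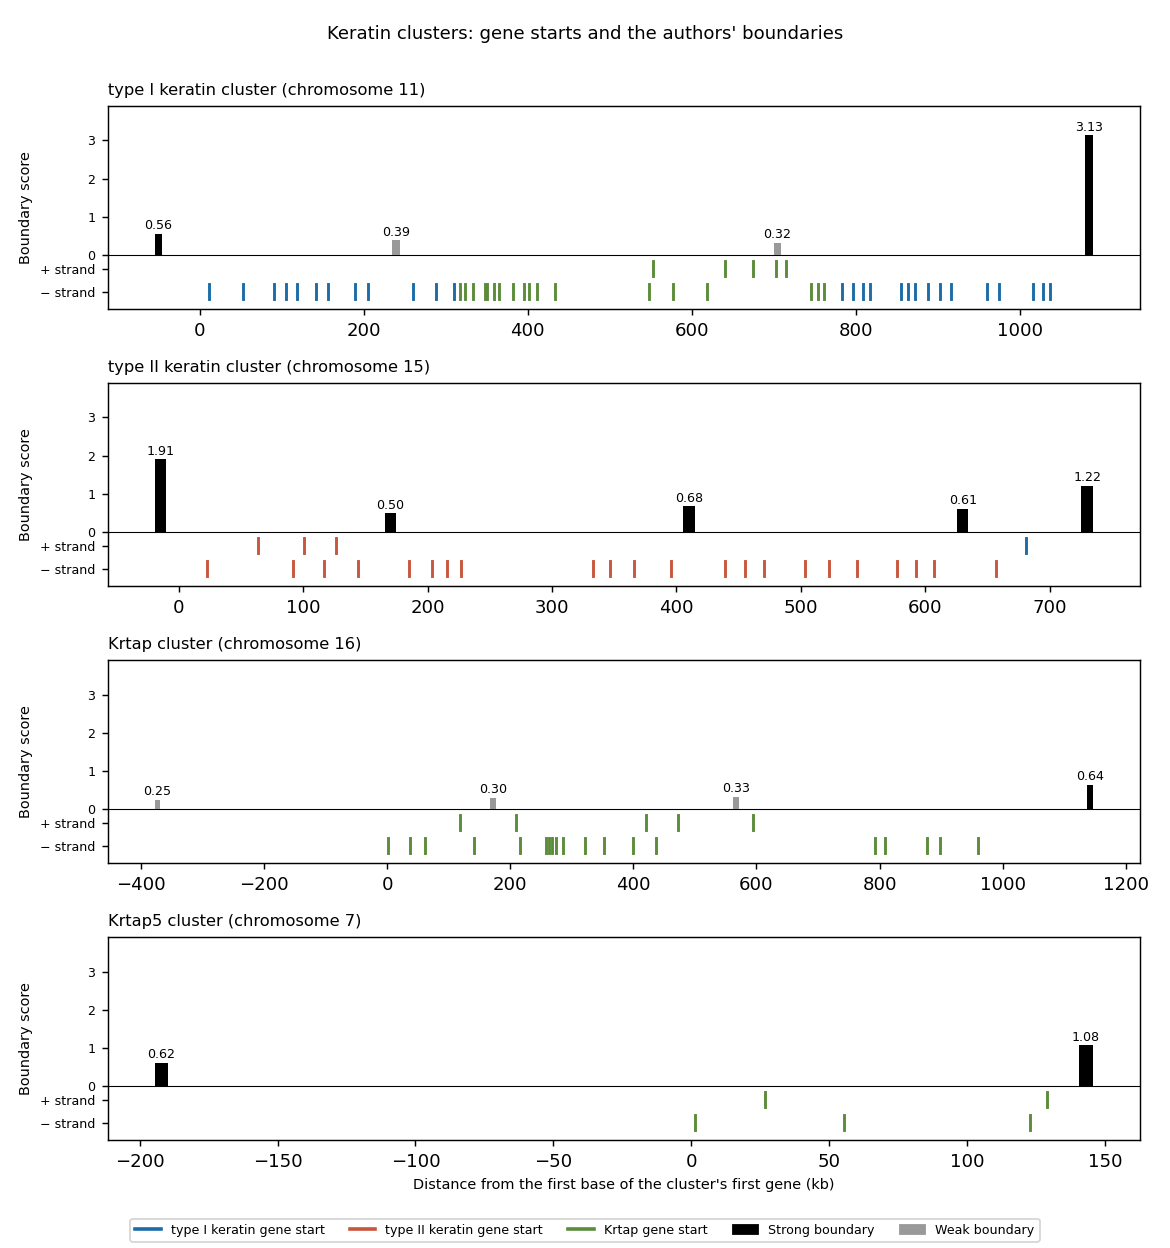
Boundaries and gene starts in the 4 keratin clusters. The x axis of each panel is the distance in kb from the first base of the cluster's first gene, at a scale of its own; bars give the authors' score of each boundary (black Strong, grey Weak, drawn wider than their true 5 kb) and ticks below 0 give gene starts by strand and family. In the type II cluster 3 Strong boundaries with scores of 0.50 to 0.68 stand between the genes, and in the type I and chromosome 16 clusters 2 Weak boundaries each, with scores of 0.30 to 0.39.

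The type II cluster was divided by 3 Strong boundaries into 4 intervals, each with a different set of keratins. This amounts to 4.38 boundaries per Mb, against 1.93 in the type I cluster, 2.08 in the Krtap cluster on chromosome 16, 0 in the Krtap5 cluster and 2.91 over the whole list. In that order the cluster densities rest on only 3, 2, 2 and 0 boundaries, and their differences were not tested. The first interval, 180 kb long, held 7 members. These are Krt80, Krt7, a keratin of ducts and simple epithelia, and Krt87, Krt88, Krt81, Krt86 and Krt83, of which Krt81, Krt83 and Krt86 are hair keratins. The second, 235 kb long, held 8 members: the hair keratins Krt84 and Krt82, then Krt90, Krt75 of the hair companion layer, Krt6b and Krt6a of wounded and appendage epithelium, Krt5 of basal cells, and Krt71 of the inner root sheath. The third, 215 kb long, held 9 members, among them Krt72 and Krt73 of the inner root sheath, Krt1 and Krt2 of differentiated epidermis, and Krt4 of oral and oesophageal mucosa. Krt77, Krt76, Krt79 and Krt78 completed it. The fourth was the shortest, 95 kb, and held Krt8 and Krt18, which pair with each other in simple epithelia.

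Krt8 and Krt18 were thus enclosed together and apart from the other 24 members of the cluster. Their interval ran from 101980001 to 102075000 and had 3 protein-coding starts, the remaining one that of Eif4b, a translation initiation factor gene. Among 7415 intervals of the list, 1.62% were as short or shorter, and the median length was 260.0 kb. Krt8 (101996698 to 102004482, − strand) started 24.5 kb from the boundary on its left, which was intergenic and scored 0.615. Krt18 (102028180 to 102032027, + strand) started 46.8 kb from the boundary on its right, in an intron of Eif4b and scored 1.22. No boundary lay between the starts of this type I and type II pair.

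The basal cell pair Krt5 and Krt14 are on different chromosomes and so could not share an interval. Their intervals were 235 and 375 kb long, against 95 kb for that of Krt8 and Krt18 and a median of 260.0 kb. Krt5 (101707070 to 101712898 on chromosome 15, − strand) started 42.1 kb from the Strong boundary at 101755001 to 101760000, which scored 0.683. Krt14 (100203162 to 100207548 on chromosome 11, − strand) started 107.5 kb from the nearest boundary, which scored 3.13. All 4 of these keratins were nearest to a Strong boundary, as are 63.1% of all protein-coding genes, and none started within 10 kb of one, as 7.88% of all do. Krt5, Krt8 and Krt18 lie in the type II cluster, where every boundary was Strong.

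The boundary positions within the type II cluster fell at different kinds of sequence. The one between Krt83 and Krt84 (101515001 to 101520000, score 0.501) overlapped coding and untranslated exon sequence of Gm49425, whose start it held. The one between Krt71 and Krt72 (101755001 to 101760000, score 0.683) overlapped exons of Krt74, which GENCODE lists in the mouse as a unitary pseudogene and which is therefore no member. The one between Krt78 and Krt8 (101975001 to 101980000, score 0.615) was intergenic. In order, 48.2, 60.6 and 56.4% of all listed boundaries scored no higher than these. This places them near the middle of the list although they are classed as Strong. The boundary between Krt83 and Krt84, at 0.5005, stood at the class cut. The lowest Strong score of the list was 0.5004 and the highest Weak score 0.4999.

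The ends of the type II cluster were marked by stronger boundaries. The left one (101330001 to 101335000, score 1.91) lay 12.4 kb before the cluster, in an intron of the antisense gene Gm35853, and ranked 14 of 288 on chromosome 15. The right one (102075001 to 102080000, score 1.22) lay 42.97 kb beyond Krt18 and ranked 53 of 288. Its nearest coding start was that of Eif4b, at 1.23 kb. All 5 boundaries in and around the cluster were Strong, where 51.8% of the whole list and 54.2% of chromosome 15 were.

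Strand went with these intervals in part. Of the 26 members, 4 lay on the + strand: Krt7, Krt88 and Krt86 in the first interval and Krt18 in the last. All 17 members of both middle intervals lay on the − strand.

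The type I cluster held 2 Weak boundaries and 3 intervals. The first interval (285.0 kb) held 9 type I keratins, all on the − strand: Krt222, a divergent member, Krt24, Krt25 to Krt28, which are inner root sheath keratins, Krt10 of differentiated epidermis, Krt12 of cornea and Krt20 of gut. Its only other coding start was that of Smarce1, a chromatin remodelling subunit gene that starts 1.74 kb before the cluster. The second (460 kb) held 3 type I keratins, Krt23, Krt39 and Krt40, and 19 Krtap genes. With 40 protein-coding starts, 18 of them those of genes with provisional symbols, this was 1 of 10 intervals of the list with as many or more starts; the median interval held 2. The third (375 kb) held 4 Krtap genes and 15 type I keratins, from the hair keratins Krt33a, Krt33b, Krt34, Krt31, Krt32, Krt35 and Krt36 to Krt13, Krt15, Krt19, Krt9, Krt14, Krt16, Krt17 and Krt42 of other epithelia, and no other coding start. A keratin with a hair role was thus found in more than 1 interval of each keratin cluster.

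The boundary between Krt20 and Krt23 (99470001 to 99475000) was intergenic and scored 0.389. The one at 99935001 to 99940000 scored 0.324 and overlapped Krtap31-2, including its start at 99936291. Counted by the boundary's midpoint, Krtap31-2 falls in the second interval and Krtap9-5, the next member, in the third. In order, 36.7 and 29.1% of all boundaries scored no higher.

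The outer boundaries of the type I cluster differed widely in score. On the left, a Strong boundary scored 0.558 (99180001 to 99185000) lay 47.8 kb before the cluster and beyond the start of Smarce1. On the right, 45.1 kb beyond Krt42, a Strong boundary at 100315001 to 100320000 scored 3.13, ranking 2 of 409 on chromosome 11, and 99.9% of all boundaries scored no higher. It held the start of Eif1, a translation initiation factor gene, and overlapped its untranslated sequence. Both keratin clusters were followed on the right by a boundary at or near a translation initiation factor gene, Eif1 on chromosome 11 and Eif4b on chromosome 15. The parallel rests on these 2 boundaries, and the share of all boundaries near such genes was not counted.

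The Krtap cluster on chromosome 16 had the lowest scores. Its 2 inner boundaries were Weak, with scores of 0.295 (88780001 to 88785000, intergenic) and 0.326 (89175001 to 89180000, in untranslated exon sequence of 1110057P08Rik). The left flank, in an intron of the glutamate receptor gene Grik1, was Weak too (score 0.245) and lay 370.7 kb before Krtap24-1. The right flank was Strong (0.636) and lay 178.8 kb beyond Krtap11-1. The intervals were long: 540 kb with Krtap24-1, Krtap26-1, Krtap27-1, Krtap13-1 and Krtap13 and 8 other coding starts, 390 kb with 13 members from Krtap14 to Krtap6-3, and 570 kb with 6 members from Krtap20-2 to Krtap11-1. The 13 members of the middle interval include the Krtap19 genes, and Krtap6-1, Krtap6-5 and Krtap6-3, of the glycine- and tyrosine-rich kind.

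The Krtap5 cluster, whose genes encode ultrahigh-sulfur proteins, held no boundary, and its 5 members shared 1 interval of 330 kb with 12 other coding starts. Krtap5-4 started 11.5 kb and Krtap5-1 17.9 kb from the intergenic Strong boundary on the right (142315001 to 142320000, score 1.08). Krtap5-2, at the other end, was 139.0 kb from it. The left flank, in exon sequence of the kinase gene Brsk2, scored 0.620 and lay 189.5 kb before the cluster. On chromosome 10, Krtap12-1, Krtap10-4 and Krtap10-10 started inside the gene Tspear and shared an interval of 300 kb with 22 other coding starts; its left flank scored 0.484, and its right flank, in coding exon sequence of the channel gene Trpm2, scored 1.39. Krtap28-10 and Krtap28-13 lay 22.5 and 40.9 kb from a Strong boundary scored 0.712, and Krtdap 22.1 kb from a Weak one scored 0.243.

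**Figure D2:**
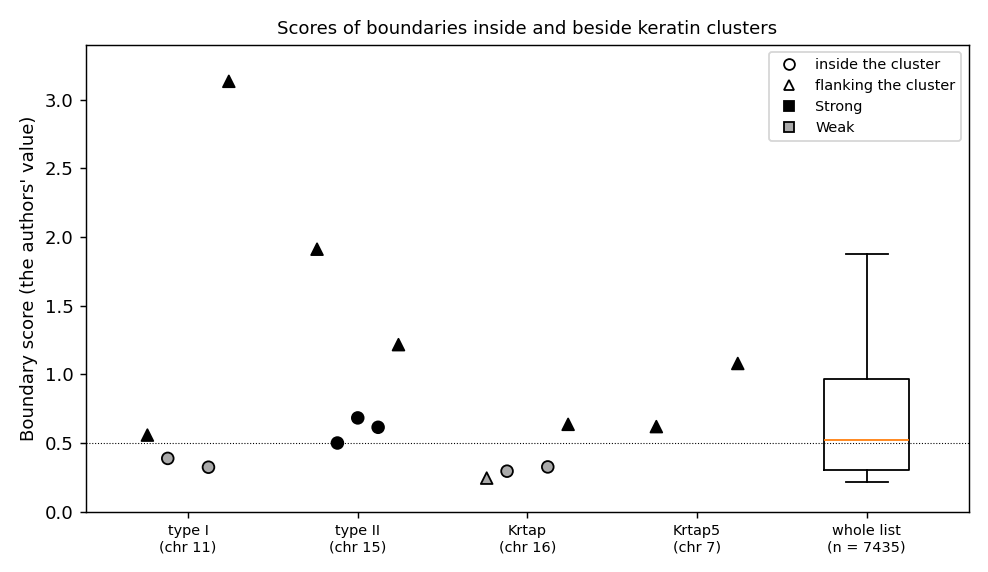
Scores of boundaries inside (circles) and flanking (triangles) each keratin cluster beside the whole list. The y axis is the authors' score, filled symbols are Strong and grey ones Weak, the dotted line is at 0.5, and the box gives the quartiles and median of the list with whiskers at its 5th and 95th percentiles. Symbols inside the clusters lie between 0.30 and 0.68, and 7 of the 8 flanking ones are Strong.

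Over all clusters, 7 boundaries lay inside and 8 flanked them. Those inside had a median score of 0.389 (range 0.295 to 0.683) and those flanking 0.858 (0.245 to 3.13), against 0.520 for the whole list. Strong boundaries numbered 3 of 7 inside (42.9%, exact 95% interval 9.90 to 81.6%) and 7 of 8 flanking (87.5%, 47.3 to 99.7%), where 51.8% of the list was Strong. The intervals are wide because few boundaries are involved, and these shares were not tested. In every cluster with boundaries inside, the highest of its flanks scored above each boundary inside.

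Members rarely lay close to a boundary. Starts within 10 kb of one numbered 2 of 111 (1.80%, exact 95% interval 0.219 to 6.36%), against 12.4% of all protein-coding genes. With the 40 genes of provisional symbol inside the clusters counted as well, they numbered 7 of 151 (4.64%, 1.88 to 9.32%). Both of the 2 members were Krtap genes at the same Weak boundary of the type I cluster, scored 0.324. Krtap31-2 (99936291 to 99937225, + strand) started inside it, as 3.25% of all protein-coding genes do in a boundary, and Krtap9-5 (99948475 to 99949551, + strand) started 8.48 kb to its right. Because both share 1 boundary, the count rests on a single deposited interval. Measured from the boundary's midpoint the count was 1, against 10.3% of all protein-coding genes. From the edge of the gene body it was 4, against 25.1%, with Krt23 at 2.97 kb and Krt84 at 5.03 kb added. The gene-body measure also depends on gene length, in which members and all genes were not matched. No member started within 10 kb of a Strong boundary, against 7.88% of all protein-coding genes; a count of 0 of 53 keratins within 10 kb of any boundary has an exact 95% upper limit of 6.72%.

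A further 10 members lay between 10 and 25 kb from a boundary, which made 12 of 111 within 25 kb (10.8%, against 24.6% of all). The closest of these were Krtap5-4 at 11.5 kb, Krt71 at 11.9 kb and Krt84 at 12.8 kb, each from a Strong boundary with a score of 1.08, 0.683 or 0.501. Within 50 kb there were 33 members (29.7%, exact 95% interval 21.4 to 39.1%, against 44% of all), and within 100 kb 65 (58.6%, against 72.4% of all).

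The families differed in these distances. Type II keratins lay a median of 42.95 kb from a boundary (quartiles 30.7 and 67.3 kb, range 11.9 to 105.3 kb), against 58.4 kb for all protein-coding genes (quartiles 25.6 and 107.8 kb). Type I keratins had a median of 97.7 kb (range 18.1 to 181.6 kb) and Krtap genes one of 106.0 kb (range 0 to 262.0 kb). The type II keratins thus lay at middle distances, with 24 of 25 within 100 kb and 0 within 10 kb. Their nearest boundary was Strong in 25 of 25 cases, against 11 of 28 type I keratins, 12 of 57 Krtap genes and 63.1% of all protein-coding genes. The 25 cases reflect only the few boundaries of the type II cluster, including the one scored 0.501, just above the class cut of 0.5.

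Within the type I cluster, keratins and Krtap genes were alike in this measure, with medians of 100.3 kb for 27 keratins and 106.0 kb for 23 Krtap genes. To the nearest Strong boundary the medians were 193.4 and 407.1 kb, since the Krtap genes fill the middle of the cluster and both Strong boundaries lie outside it. On chromosome 16 the median to any boundary was 119.3 kb. The 5 farthest members were Krtap8-1 (262.0 kb), Krtap7-1 (241.7 kb), Krtap6-2 (240.1 kb) and Krtap21-1 (223.9 kb) on chromosome 16 and Krtap4-6 (191.0 kb) on chromosome 11. Each lay inside the longest interval of its cluster.

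**Figure D3:**
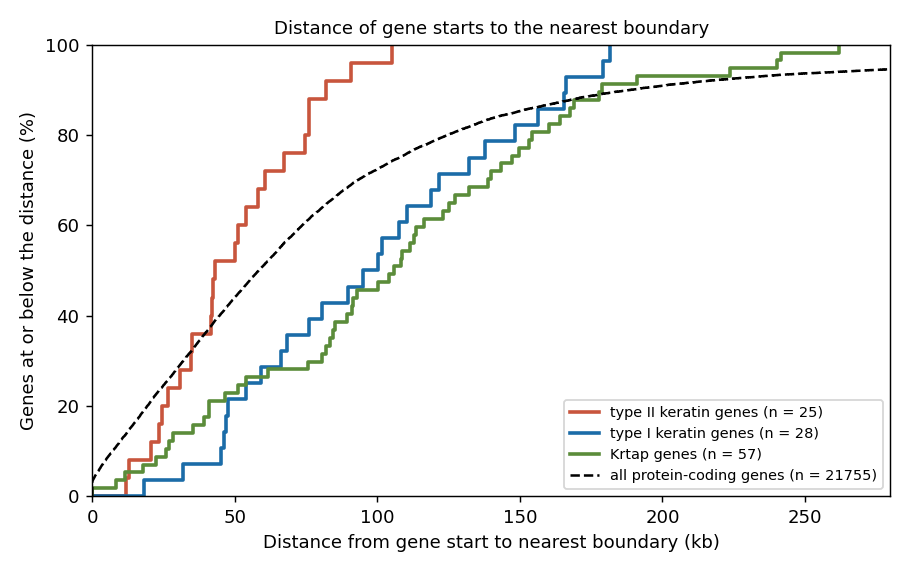
Cumulative share of gene starts by distance to the nearest boundary. The x axis is the distance in kb and the y axis the percentage of genes at or below it, for 25 type II keratins, 28 type I keratins, 57 Krtap genes and all 21755 protein-coding genes. The type II curve stays at 0 below 11.9 kb and ends at 105.3 kb, while the type I and Krtap curves reach 50% at 97.7 and 106.0 kb, against 58.4 kb for all genes.

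Distances of neighbours in a tandem cluster depend on how closely the genes are packed, so pairs of neighbouring starts were examined too. Counting every protein-coding start inside the clusters, the provisional symbols included, a boundary lay between 7 of 141 neighbouring pairs (4.96%), against 26.2% of all neighbouring protein-coding starts. The median spacing was 14.4 kb in the clusters, against 40.03 kb over all. Among pairs at most 50 kb apart the counts were 5 of 134 in the clusters (3.73%), against 8.54% of all such pairs. Among pairs over 50 and at most 200 kb apart they were 2 of 7, against 36.7% of all such pairs. Packing was matched only in part. Among the pairs at most 50 kb apart, the median spacing was 14.2 kb in the clusters, against 18.3 kb over all. The type II cluster had 3 of 28 pairs separated, the type I cluster 2 of 67 and the Krtap cluster on chromosome 16 2 of 37. With members alone, where some pairs have other coding genes between them, the same 7 boundaries separated 7 of 101 pairs. The separated neighbours were Krt20 and Krt23, 55.0 kb apart, Krt71 and Krt72, 43.4 kb apart, and Krt78 and Krt8, 50.2 kb apart. Krtap31-2 and Krtap9-5 were the closest, 12.2 kb apart. At the remaining 3 boundaries at least one neighbour had a provisional symbol: Gm49425 and Krt84 were 15.6 kb apart, 1110057P08Rik and Krtap20-2 31.1 kb, and Gm5965 and Gm20741 34.3 kb.

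**Figure D4:**
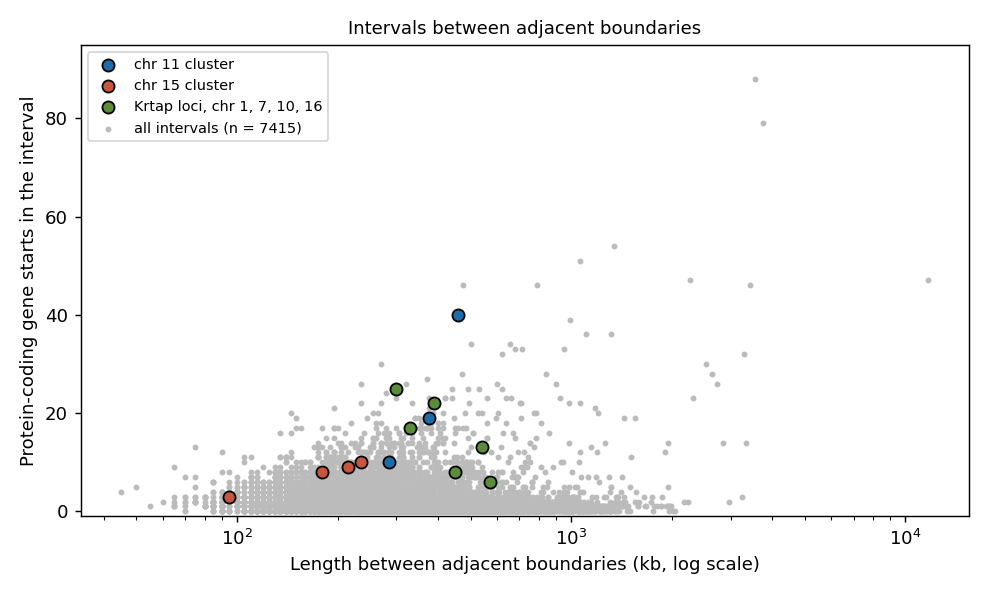
Length of each interval between adjacent boundaries and the number of protein-coding gene starts in it. The x axis is the length in kb on a log scale, grey points are all 7415 intervals and coloured points the 13 that hold keratin or Krtap genes. The 4 intervals of the type II cluster span 95 to 235 kb with 3 to 10 starts, and the middle interval of the type I cluster holds 40 starts in 460 kb.

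In all, the 111 members lay in 14 intervals, with a median length of 315.0 kb (range 95 to 570 kb), against 260.0 kb for the list. Of the 14, 9 were longer than the median of the list. All 4 type II intervals were shorter than that median.

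The clusters differed in how much of their sequence is repeated elsewhere. Of sampled words of 32 bases, 91.0% were unique in the genome in the type II cluster, 87.7% in the type I cluster, 83.6% in the Krtap cluster on chromosome 16 and 74.4% in the Krtap5 cluster, against 83.6% over the genome. Among the 3 intervals of the type I cluster the share was lowest, 81.2%, in the middle one with the most Krtap genes, against 92.04 and 93.4% in the others. The part of repeated sequence in the number of boundaries found was not tested.

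The type II boundaries also had CTCF consensus matches near them. A match lay within 10 kb of 3 of the 5 boundaries in and around the type II cluster and of both that flank the Krtap5 cluster, but of 0 of 4 of the type I cluster and 0 of 4 of the Krtap cluster on chromosome 16. Together this was 5 of 15 (33.3%, exact 95% interval 11.8 to 61.6%), against 23.1% of the list. Inside the boundary itself there was a match in 3 of 15, between Krt83 and Krt84, between Krt78 and Krt8 and beyond Krtap5-4, against 6.29% of the list. Within 25 kb all 5 type II boundaries had a match and 10 of 15 in all, against 38.1% of the list. The nearest match to the boundary at Krt74 was 12.3 kb away on the − strand, and the one nearest to the strongest boundary, beyond Krt42, was 13.7 kb away on the + strand. Only exact letters of the consensus were counted, so a window with no match says nothing of whether the protein binds there.

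The boundary between Krt78 and Krt8 was the only one of the 15 with matches on both strands within 10 kb, printed above. The match inside it was on the + strand, and the other lay 4.51 kb to its right on the − strand. At the other end of the Krt8 and Krt18 interval a match on the − strand lay 9.17 kb before the right boundary. The share of all listed boundaries with matches on both strands was not counted, so how usual these placements are is not known.

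GC content of the boundaries differed among the clusters. The median over the 5 boundaries of the type II cluster was 49.2%, over the 4 of the type I cluster 45.1% and over the 4 of the Krtap cluster on chromosome 16 38.2%, against 42.6% for the list.

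Member promoters shared features that the choice by symbol did not use. RefSeq promoters within 200 bases of the GENCODE start were matched for 85 members and 12815 protein-coding genes in all, and the 250 bases before the start were read. TATAAA stood 45 to 15 bases before the start on the gene's strand in 46 of 85 members (54.1%), against 3.25% of all promoters. By family this was 32 of 50 Krtap genes, 10 of 20 type I keratins and 3 of 14 type II keratins; Krtdap had it as well. In the 46 it began a median of 30 bases before the start, and in 35 between 32 and 28 bases before it. Anywhere in the 250 bases and on either strand, TATAAA was found in 59 of 85 members (69.4%), against 10.7% of all promoters. Type II keratins had it less often than the other families in these counts, and the difference was not tested. Only 14 of 25 type II keratins had a matched promoter. Only the exact letters TATAAA were counted, so a promoter without them may still hold a variant of the TATA box.

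Promoters of members were also poor in CpG, the dinucleotide that is dense in the promoters of most housekeeping genes. Their median CpG ratio, observed over expected from base composition, was 0.206, against 0.600 for all promoters, and 79 of 85 had a ratio below 0.5, against 42.3% of all. Median GC content was 43.2%, against 56.8% for all.

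Across all genes, the share of starts within 10 kb of a boundary went up with this ratio. It was 8.62% of 3085 genes with a ratio below 0.25, 11.4% from 0.25 to 0.5, 13.8% from 0.5 to 0.75, 15.8% from 0.75 to 1 and 18.1% of 1065 genes with a ratio of 1 or more. Of the 85 members 53 were in the lowest class, 26 in the next and 6 in the one after that. Genes with a ratio below 0.5 together had 9.82% of starts near a boundary, and those that also had TATAAA in the window 5.59% (19 of 340). The matched members had 2 of 85 near (2.35%), against 12.98% of all genes with a matched promoter. The part of promoter sequence in this share was not tested.

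**Figure D5:**
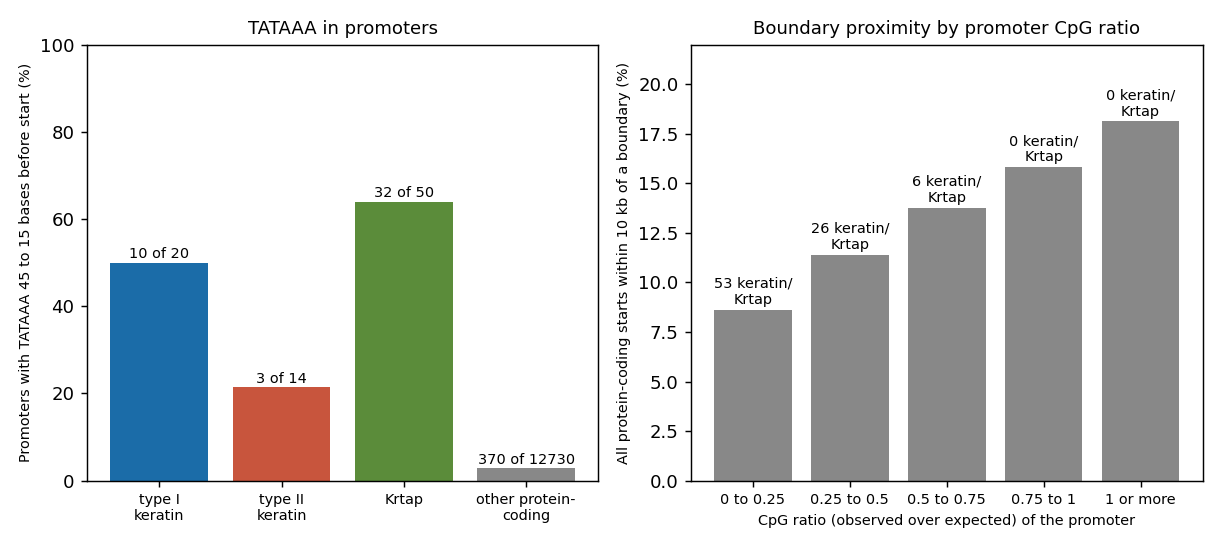
Promoter sequence features and boundary proximity. Left, percentage of promoters with TATAAA on the gene's strand 45 to 15 bases before the start, with counts above the bars. Right, percentage of all protein-coding starts within 10 kb of a boundary by CpG ratio of the promoter. Labels on the right give the number of member promoters in each class, and the lowest class includes Krtdap. TATAAA is in 32 of 50 Krtap promoters and 370 of 12730 other promoters, and no keratin or Krtap promoter has a CpG ratio of 0.75 or more.

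The 2 members at the boundary of the type I cluster, Krtap31-2 and Krtap9-5, were of this kind. In the 100 bases printed above, 67 letters were the same at the same place, with a longest shared run of 23. Their CpG ratios were 0 and 0.106.

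Partners of keratin filaments and proteins of the cornified envelope were listed for comparison, and 22 of 22 were found. The list also held Krtcap2 and Krtcap3, which are neither. Both count in the share and the median given here, and values without them were not computed. Starts within 10 kb of a boundary numbered 2 of 22 (9.09%, against 12.4% of all genes): Tchp, a keratin-binding protein gene, and Hrnr, a filaggrin-related gene, each started inside a Weak boundary, with scores of 0.252 and 0.208. The median distance was 69.4 kb, against 58.4 kb for all. Jup, which encodes plakoglobin of desmosomes and lies on chromosome 11 beyond the type I cluster, was 77.2 kb from a boundary scored 0.438. Dsp, the desmoplakin gene, was 178.7 kb from one scored 0.604.

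Other tandem families of the same list were measured in the same way. Keratin clusters held 2.49 boundaries per Mb over 2.81 Mb, against 2.45 in 33 olfactory receptor clusters and 2.96 in 7 cytochrome P450 clusters. Median scores of boundaries inside were 0.389, against 0.385 and 0.410, and the Strong shares 42.9%, against 39.2% and 37.5%. Starts within 10 kb were 1.80% of members, against 5.90% of 1135 olfactory receptor genes and 12% of 100 cytochrome P450 genes. With the provisional genes inside the clusters counted too, the keratin share was 4.64%. For members, olfactory receptor and cytochrome P450 genes, shares within 25 kb were 10.8, 12.2 and 28%, and within 50 kb 29.7, 25.1 and 40%. Their median distances were 83.4, 104.4 and 69.1 kb. Members thus had a lower share than olfactory receptor genes within 25 kb but not within 50 kb. Of the cluster ends, 2 of 8 keratin ones (at Krt80 and Krtap5-4) had a boundary within 25 kb, against 25 of 66 and 5 of 14. By pooled density and median score the keratin clusters were close to those of both families, and no difference among them was tested. The keratin pool rests on 7 boundaries, and its density interval of 1.00 to 5.13 per Mb is too wide to decide likeness. Individual keratin clusters ran from 0 to 4.38 per Mb, and only the type II cluster had Strong boundaries inside.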

How the data were processed

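Boundaries were called by the authors on a contact matrix that combines both replicates, on GRCm38, per the series design text; the submitters' processing notes name the same build. Each deposited boundary has a class and a strength score, and how the score was computed, which caller and aligner were used and what was filtered is not given in the sources used here. Depth per sample is not in the list, so its precision is unknown. Contact matrices and replicate contact lists were not used here.

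All 7435 intervals lay within their chromosomes. Distances were taken from the GENCODE M21 gene start to the nearest edge of a boundary and are 0 inside it; coordinates are 1-based. Members and gene lists were chosen with earlier results of these data known. Named genes were members within 10 kb, the 5 nearest and 5 farthest, cluster ends, members beside inner boundaries, Krt5, Krt14, Krt8 and Krt18, members outside clusters, and the nearest coding genes at those boundaries and ends; genes that share an interval were added after their values were seen. The CTCF consensus was searched on both strands of the RefSeq genome of the same build. Promoters came from RefSeq. Distance, cluster and motif steps were tested on simulated data. Python 3.11.15, pandas 2.3.3 and SciPy 1.17.1 were used. With 1 pooled list and no second group, no test between samples was made.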

Additional observations from a re-analysis of the deposited data

How the results depend on the processing

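No paired analysis was possible because the 2 replicates form 1 group and the list is pooled over both; for the same reason no replicate could be left out. Of 36 alternatives over 8 results, 23 stayed within 1.5 times the count or within the interval of the value. This rule is loose, so the 23 say little about stability. The interval of the median score was the range of the 7 inner boundaries, 0.295 to 0.683. That of the density ran from 1.00 to 5.13 per Mb. For cluster ends only the number near a boundary was compared, not its share. Starts near a boundary numbered 2 within 10 kb, 1 when the start had to lie inside the boundary, 1 when distance was taken from the boundary's midpoint, 4 from the nearest edge of the gene body (Krt23 and Krt84 were added), 12 within 25 kb, 33 within 50 kb and 0 with Strong boundaries only. In an alternative chosen after seeing the data, the 40 genes of provisional symbol inside the clusters were counted too, which gave 7 of 151 near, a median distance of 84.5 kb and 7 of 141 neighbouring pairs separated, against 7 of 101 for members alone. The matching shares of all protein-coding genes were 3.25, 10.3, 25.1, 24.6, 44 and 7.88%, in the order inside, midpoint, gene body, 25 kb, 50 kb and Strong only. Each share of members was lower, and the gene-body share also depends on gene length, which was not matched. The median distance of 83.4 kb became 232.9 kb with Strong boundaries only. Cluster ends within 25 kb, 2 of 8, became 1 of 6 with at least 10 genes per cluster, 0 within 10 kb and 5 within 50 kb; it was 2 of 14 with gaps of at most 100 kb and 2 of 10 with at least 3 genes per cluster. Boundaries with a CTCF match, 5 of 15 within 10 kb, became 3 inside the boundary and 10 within 25 kb. Density went down to 1.07 per Mb with Strong boundaries only, all 3 of them in the type II cluster, and otherwise ran from 2.39 to 2.63 per Mb. The moved values came with wider, narrower or stricter settings or, for 7 of 151, with a change in the genes counted. The main limits are the unknown depth, the absence of values per replicate, the small number of boundaries behind all members, and the unsettled naming of the provisional genes.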

Other observations

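Protein-coding genes with provisional symbols inside the keratin clusters lay near boundaries more often in these counts than the named members, and the difference was not tested. Of 40 such genes, 5 started within 10 kb (12.5%, exact 95% interval 4.19 to 26.8%), against 2 of 111 members and 12.4% of all protein-coding genes. Gm49425 started inside the Strong boundary between Krt83 and Krt84, scored 0.501. On chromosome 16, 1110057P08Rik and Gm7735 started 0.266 and 5.51 kb from the Weak boundary scored 0.326, and Gm5965 and 2310057N15Rik started 2.10 and 5.80 kb from the one scored 0.295. The choice of members by symbol thus leaves out coding genes of the same clusters that sit at inner boundaries: of the 7 inner boundaries, those between Krt83 and Krt84, Krtap13 and Krtap15, and Krtap6-3 and Krtap20-2 each had a gene with a provisional symbol as the nearest coding start.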
